A study of Mus musculus with 47 samples.

Results

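The livers of 4 embryos homozygous for the S226A allele of Daxx (genotype S226A/S226A) were compared with the livers of 4 wild-type (WT) littermates at E18.5, shortly before birth. Each of 4 litters gave 1 S226A liver and 1 wild-type liver, so that replicates with the same number are littermates, and these 8 libraries were taken by their labels from the 47 libraries of the series. The other libraries hold lung and brain of the same litters and the tissues of embryos with another allele, Y130A, which also had 4 mutant livers and 4 wild-type littermate livers. All embryos were on the C57BL/6 strain, the mutation is carried in the germline and so is present in all cells of a mutant embryo, and the study states that sexes and litters were matched. RNA was sequenced from the tissue in bulk, in which fewer cells of a type and less of an RNA per cell cannot be told apart. The 16892 genes that passed the filter on low counts over all libraries were examined as a whole, by cell type, by metabolic function and by pathway.

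Daxx is a histone chaperone that places the histone variant H3.3 in chromatin, in a complex with Atrx, and the serine exchanged in S226A lies in the part of Daxx that binds H3.3. The liver before birth is at once a metabolic organ in the making and the main site of blood formation. Its RNA therefore comes from hepatocytes, from erythroblasts, granulocyte precursors and lymphoid cells that are maturing there, and from the sinusoidal endothelium and the resident macrophages, called Kupffer cells, that line and patrol its blood spaces. Kupffer cells clear ageing red cells, iron and complement-coated particles from the blood.

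The codon exchanged in S226A is shown with its surroundings because its exchange defines the mutant group. The allele was made with CRISPR/Cas9 and also carries silent changes that are not shown here. The codon lies at chr17:33911688-33911690 (GRCm38, plus strand) in exon 3 of the 8 exons of transcript Daxx-201, and the reference sequence from 33911658 to 33911720 is printed with the exchanged serine codon in capitals.
Daxx reference: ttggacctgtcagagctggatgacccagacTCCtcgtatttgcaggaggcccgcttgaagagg
The libraries were counted per gene and not per allele. Daxx itself (ENSMUSG00000002307.15) had 600, 592, 819 and 651 normalised counts in the wild-type livers and 638, 700, 562 and 687 in the S226A livers. The groups overlapped and the log2 fold change was -0.04 (SE 0.09, adjusted p = 0.857, edgeR). Normalised counts are read counts divided by the library size after TMM scaling and brought to the mean size of the 8 livers.

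The wild-type libraries held 17462973 to 20833652 counted reads and the S226A libraries 18848084 to 26190403. Wild-type replicate 2 stood apart: on the first principal component, which took 23.1% of the variance, it lay at 96.7 and the other 3 wild-type livers between -5.41 and 7.5. This library held transcripts of squamous epithelium, a tissue of skin and upper gut and not of liver. The 23 squamous genes of the list, of which 22 were tested, summed to 1458 CPM (read counts relative to the TMM-scaled library size) in it, to 9.89 to 13.6 CPM in the other wild-type livers and to 7.07 to 17.3 CPM in the S226A livers. The keratin Krt4 had 0, 8742, 6.94 and 0 normalised counts in the wild-type livers and 0, 5.95, 38.8 and 13.9 in the S226A livers (adjusted p = 0.0446, edgeR, and 0.306 with litter as a block). With all libraries 13 of the 22 genes were called lower in S226A (beside 5.54% of all genes tested, at an adjusted p below 0.05) and without wild-type replicate 2 it was 0, and with litter as a block it was 5, so that nothing is read from these genes. Both livers of the same litter, 2881, also held skeletal muscle transcripts: the 11 muscle genes summed to 408 CPM in S226A replicate 2, to 68.5 CPM in wild-type replicate 2 and to 9.63 to 24.1 CPM in the other 6 livers. Of these 11 genes 1 was called higher, 6 without wild-type replicate 2 and 2 with litter as a block. Where leaving out wild-type replicate 2 changed the count of called genes of a list described here or the call of a named gene, the value without it is printed beside it. The plot of marker lists by library shows both libraries.

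**Figure D1:**
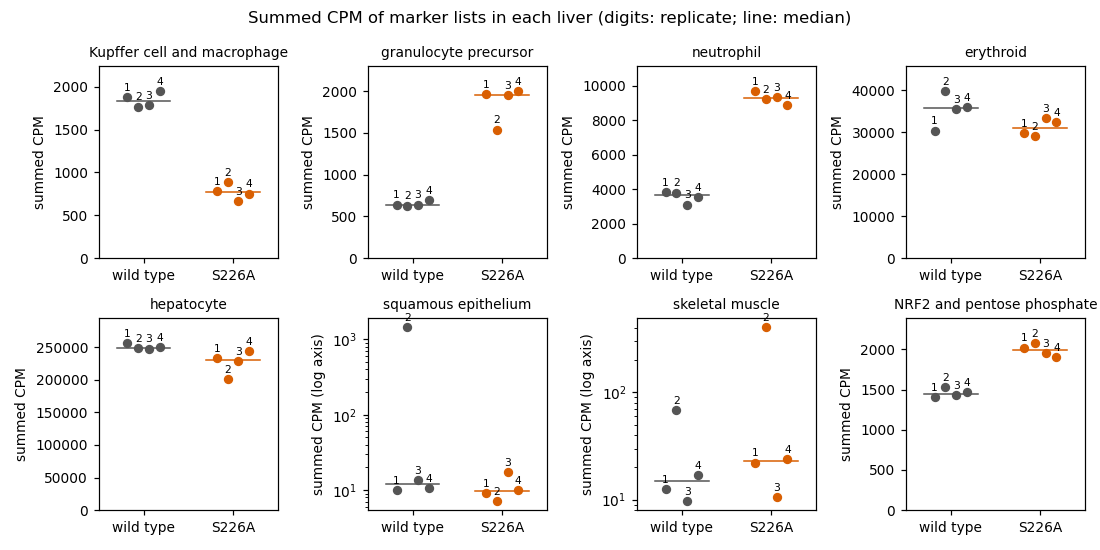
Summed CPM of 8 gene lists in each liver. Each point is 1 library with its replicate number, the line is the median of 4 libraries, and the squamous and muscle panels have log axes. Wild-type replicate 2 holds 1458 CPM of squamous transcripts and S226A replicate 2 holds 408 CPM of muscle transcripts, while the Kupffer cell, granulocyte precursor, neutrophil and NRF2 panels separate the genotypes in all 8 livers.

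Across the whole ranking, 1972 of 16892 genes (11.7%) differed between S226A and wild-type liver at an adjusted p below 0.05 (edgeR quasi-likelihood test with Benjamini-Hochberg adjustment). A gene is termed called, or a differentially expressed gene (DEG), when it passes this threshold. Of all genes tested, 1037 (6.14%) were higher and 935 (5.54%) were lower in S226A. Without wild-type replicate 2, 1089 were higher and 712 lower, and 1520 of the genes were called in both fits. With litter as a block, 1129 were higher and 1109 lower. When libraries were scaled by their totals alone, the split moved from 52.6% to 65.2% higher (1266 higher and 676 lower). It turned with the RLE scaling, to 48% higher (997 higher and 1080 lower), and DESeq2 called 1175 higher and 1382 lower, so that which direction holds more genes depends on the scaling. In the livers alone 761 were higher and 369 lower (stringent 184 and 80). Most differences were small, since 69.1% of the DEGs changed by less than 1 on the log2 scale. By the stringent criteria (adjusted p below 0.01, log2 fold change beyond 1, SE below 1) 212 genes (1.26%) were higher and 143 (0.847%) were lower, and 231 and 119 without wild-type replicate 2. For 1336 of the 1972 DEGs the 4 S226A livers did not overlap with the 4 wild-type livers, and over all genes tested this held for 2006 (11.9%). The median log2 fold change of all genes was -0.01.

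The excess of lower genes in bins of low expression depended in part on wild-type replicate 2. In 10 bins of about 1690 genes from the lowest to the highest mean CPM over the 8 livers, the third bin had 4.38% of its genes called higher and 7.76% called lower, but 5.51% and 4.85% without wild-type replicate 2. In the second bin 2.37% and 6.93% became 4.39% and 3.09%. In the first bin, the lowest, 11 genes were called higher and 15 lower, and 4 and 14 without that library. In the seventh bin it was 9.35% higher and 4.97% lower, and 8.76% and 4.44% without that library. In the bin of the most highly expressed genes, both directions were near each other at 6.8% and 7.1% (7.04% and 5.44% without it). In wild-type tissues of the Y130A litters, 756 genes had more than 8-fold higher RNA in lung, but not in brain, than in liver. Of these, 31 were called higher and 63 lower, and 56 and 25 without wild-type replicate 2. Of 1045 genes above liver by this limit in both lung and brain, 20 were called higher and 54 lower, and 39 and 31 without that library. The size of the differences was smaller along the same axis, going from a median absolute log2 fold change of 1.47 among the DEGs of the third bin to 0.34 among those of the tenth.

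**Figure D2:**
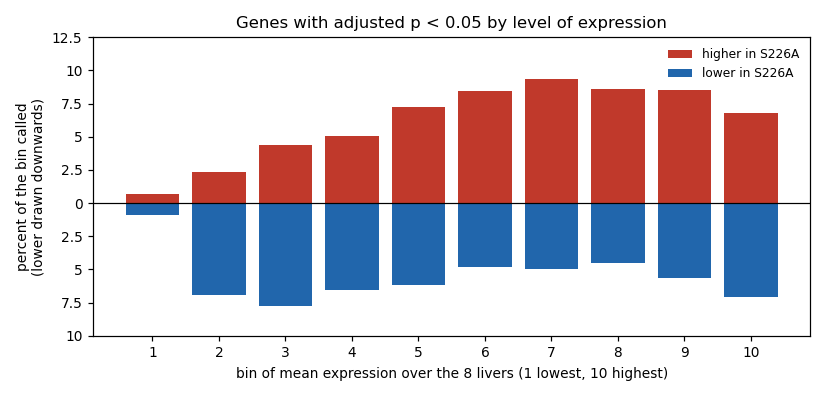
Percent of genes called higher (upward bars) and lower (downward bars) at an adjusted p below 0.05 in 10 bins of mean expression over the 8 livers, bin 1 being the lowest. The downward bars are longer than the upward bars in bins 1 to 4 and 10, and the upward bars peak at 9.35% in bin 7. All 8 livers are included, and without wild-type replicate 2 bins 2 and 3 have more genes called higher than lower.

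The RNAs that mark Kupffer cells were lower in all S226A livers. Of 20 Kupffer cell and macrophage genes, 18 were called lower and 0 higher (17 lower without wild-type replicate 2), with a median log2 fold change of -1.92, which is the same with Vsig4 at its bound. The list summed to 1767 to 1944 CPM in the wild-type livers and to 669 to 885 CPM in the S226A livers. Vsig4, the complement receptor of resident macrophages, had 230, 260, 217 and 317 normalised counts in the wild-type livers and 0 in each of the 4 S226A livers, so that it was at least 88.3-fold lower when 3 reads per library are taken as the limit. Clec4f, a lectin of Kupffer cells, had 2155, 1507, 2221 and 2497 normalised counts in wild type and 3.18, 11.9, 4.98 and 2.14 in S226A (log2 fold change -8.42, SE 0.39, adjusted p = 6.83e-20, edgeR). Timd4, which binds the phosphatidylserine of dying cells, had 284, 244, 310 and 337 against 9.54, 26.8, 6.97 and 0. The scavenger receptor Cd163, which takes up haemoglobin, had 175, 210, 163 and 195 against 9.54, 2.97, 0 and 6.41. The 2 groups did not overlap for any of these 4 genes, and littermates showed the difference in each of the 4 litters.

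The fold changes of the list ran from that of Vsig4 down to almost no difference. To show the smaller ones, 5 members were chosen after their values were seen. Csf1r, the receptor of macrophage colony-stimulating factor, fell by 1.61 on the log2 scale (SE 0.07). Adgre1, which encodes the macrophage antigen F4/80, fell by 1.37 and the mannose receptor Mrc1 fell by 1.02. Slc40a1, the iron exporter ferroportin, fell by 0.55. Spic, a transcription factor of red pulp and bone marrow macrophages, had an adjusted p of 0.0354 with all libraries and of 0.0682 without wild-type replicate 2 (edgeR). Marco and Nr1h3 did not pass the test, with 1585 ± 176 and 1209 ± 271 normalised counts for Marco and 593 ± 45.0 and 581 ± 33.0 for Nr1h3 (wild type and S226A, mean ± SD, n = 4).

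**Figure D3:**
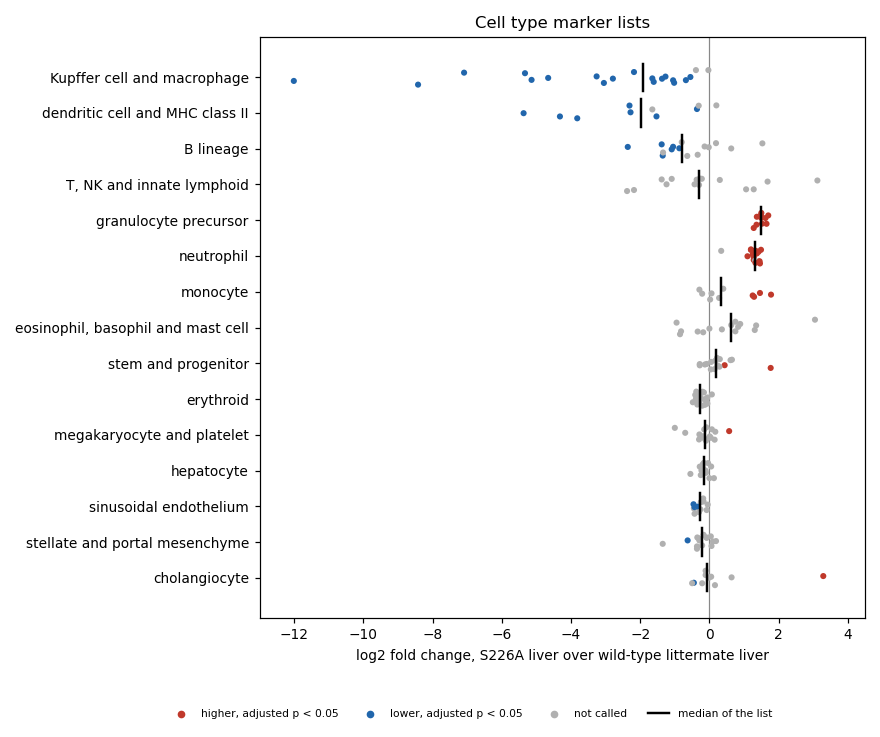
Log2 fold change of S226A over wild-type liver for each gene (points) of 15 cell type lists, with the median of each list as a vertical line. Red and blue points passed an adjusted p of 0.05. All granulocyte precursor genes lie above 1 and all Kupffer cell genes lie below 0, with Vsig4 plotted at its fitted value of -12.01.

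Most genes of the dendritic cell and MHC class II list and some of the B lineage were called lower. Of 10 dendritic cell and MHC class II genes tested, 7 were called lower and 0 higher (6 lower without wild-type replicate 2). H2-Aa, a chain of the class II molecule, had 148, 99.4, 115 and 68.1 normalised counts in wild type and 3.18, 13.4, 2.99 and 0 in S226A, which is a log2 fold change of -4.32 (SE 0.54, adjusted p = 1.39e-07, edgeR). Cd74, the chain that accompanies class II through the cell, had 192, 150, 170 and 156 against 36.0, 49.1, 14.9 and 33.1. Siglech, a marker of plasmacytoid dendritic cells, had 11.9, 28.6, 22 and 23.7 against 0, 1.49, 0 and 0. Itgax and Ciita did not pass the test.

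Of 15 B lineage genes, 6 were called lower and 0 higher (5 without wild-type replicate 2), with a median log2 fold change of -0.80. Cd22, an inhibitory receptor of B cells, had 192, 251, 227 and 207 normalised counts in wild type and 71.0, 52.8, 15.9 and 29.9 in S226A (log2 fold change -2.36, SE 0.47, adjusted p = 0.000408, edgeR). The subunit of the interleukin 7 receptor, Il7r, had 281, 201, 234 and 202 against 106, 127, 78.7 and 47. Cd79b, a signalling chain of the B cell receptor, had 338, 360, 363 and 322 against 147, 251, 189 and 59.8. Rag1, a recombinase of B and T cell precursors, had 647 ± 82.7 and 512 ± 176 normalised counts, overlapped between the groups and did not pass. None of the 15 T, NK and innate lymphoid genes passed the test, and this list summed to 16.2 to 31.4 CPM in wild type and 20.8 to 31.1 CPM in S226A.

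Genes of granulocyte precursors and neutrophils were higher in every S226A liver than in every wild-type liver when summed over their lists. All 10 granulocyte precursor genes were called higher by edgeR (median log2 fold change 1.5) and 8 by DESeq2, which did not call Elane and Mpo, and they summed to 630 to 696 CPM in wild type and to 1539 to 1996 CPM in S226A. Of 18 neutrophil genes, 16 were called higher (median 1.33), with sums of 3112 to 3819 and 8872 to 9662 CPM. Ctsg, the granule protease cathepsin G, had 581, 588, 502 and 734 normalised counts in wild type and 2069, 1454, 2137 and 2174 in S226A (log2 fold change 1.70, SE 0.28, adjusted p = 1.97e-05, edgeR). Fcnb, a ficolin of immature granulocytes, had 940, 837, 697 and 766 against 2746, 2311, 2665 and 2455. Lcn2, the iron-binding lipocalin of secondary granules, had 3526, 3445, 2845 and 3303 against 9155, 9247, 9631 and 8846. Il1r2, a decoy receptor of mature neutrophils, had 65.2, 79.3, 81.0 and 41.4 against 212, 136, 176 and 193. Fpr1 and Ly6g did not pass the test with all libraries.

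Promoters of 4 of these genes are shown because short motifs known from factors of the granulocyte lineage were searched in all promoters of the same length (250 bases before to 50 after the start, RefSeq, GRCm38.p6, both strands). The motif GAGGAAGT, the core of many sites of the factor PU.1, was found in 3.28% of 27025 promoters (2.95% of those of genes tested). It was found in 3 of the 7 granulocyte precursor genes called that had a promoter sequence, in 3 of 15 neutrophil genes called and in 1 of 14 Kupffer cell genes called (C1qc). The motif TTGCNNAA, the core of many C/EBP sites, was found in 10.8% of all promoters (8.86% of those of genes tested). It was found in 3 of these 7 genes and in 6 of 15 neutrophil genes called, and in 0 of 14 Kupffer cell genes called. The lists were not tested against each other. Neither motif contains the other, and a match is a description of the letters and not evidence of binding. Prtn3 and Elane lie next to each other on chromosome 10 and encode the granule proteases proteinase 3 and neutrophil elastase, and Ngp encodes a granule protein of neutrophils. These genes were chosen for their matches. Matches are in capitals.
Prtn3 (chr10:79879417-79879716, plus strand, motif GAGGAAGT): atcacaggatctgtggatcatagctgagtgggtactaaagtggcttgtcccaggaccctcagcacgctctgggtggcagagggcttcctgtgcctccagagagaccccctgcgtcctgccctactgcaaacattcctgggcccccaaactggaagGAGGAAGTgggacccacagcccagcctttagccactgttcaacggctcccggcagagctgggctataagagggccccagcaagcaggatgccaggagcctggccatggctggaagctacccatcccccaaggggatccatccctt
Elane (chr10:79886062-79886361, plus strand, motif GAGGAAGT): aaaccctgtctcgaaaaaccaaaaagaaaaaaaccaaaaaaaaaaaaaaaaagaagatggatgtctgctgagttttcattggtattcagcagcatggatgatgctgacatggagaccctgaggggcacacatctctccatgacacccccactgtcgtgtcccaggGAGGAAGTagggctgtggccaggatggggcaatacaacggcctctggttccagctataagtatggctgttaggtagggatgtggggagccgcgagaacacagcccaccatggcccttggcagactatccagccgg
Fcnb (chr2:28084829-28085128, minus strand, motif TTGCNNAA): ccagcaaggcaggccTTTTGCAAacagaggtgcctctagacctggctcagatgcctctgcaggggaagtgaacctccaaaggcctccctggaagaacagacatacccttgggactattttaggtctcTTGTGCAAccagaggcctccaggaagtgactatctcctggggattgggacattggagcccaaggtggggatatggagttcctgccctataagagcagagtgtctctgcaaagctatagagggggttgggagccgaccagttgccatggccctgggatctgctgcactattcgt
Ngp (chr9:110419558-110419857, plus strand, motif TTGCNNAA): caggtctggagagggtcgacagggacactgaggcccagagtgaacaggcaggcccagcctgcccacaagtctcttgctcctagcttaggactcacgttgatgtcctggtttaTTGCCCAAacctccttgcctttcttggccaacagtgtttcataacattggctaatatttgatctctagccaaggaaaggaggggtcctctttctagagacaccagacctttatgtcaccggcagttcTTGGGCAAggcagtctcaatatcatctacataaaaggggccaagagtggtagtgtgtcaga

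Monocyte genes moved only in part. Of 10 genes, 4 were called higher and 0 lower (5 higher without wild-type replicate 2): Chil3, Ly6c2, Plac8 and F13a1. Ly6c2, a surface marker of classical monocytes, had 562, 454, 633 and 611 normalised counts in wild type and 1677, 1526, 1517 and 1485 in S226A (log2 fold change 1.46, SE 0.21, adjusted p = 1.39e-06, edgeR). F13a1, a coagulation factor subunit made by monocytes, had 1054, 1158, 871 and 1204 against 2705, 2404, 2669 and 2458. Irf8, a factor that favours monocytes and dendritic cells over granulocytes, had 663 ± 128 and 691 ± 102 and did not pass. Of 15 eosinophil, basophil and mast cell genes, 0 passed, and of 16 stem and progenitor genes Ly6a and Cd34 were called higher (lost in 1 and 3 of the 8 fits that left out 1 liver), while the stem cell factor receptor Kit had 1029 ± 124 and 1063 ± 16.9 normalised counts. Among 16 megakaryocyte and platelet genes only Thbs1 was called (with litter as a block 1 other was called lower), with 7459, 8036, 7241 and 6771 against 10963, 10220, 10932 and 11724.

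The erythroid genes depended on which libraries shared the estimate of spread. In the fit over all tissues 0 of 24 were called, and 6 had an unadjusted p below 0.05, all lower. The median SE of these genes was 0.24 over all libraries and 0.09 in the livers alone. In the fit of the 8 livers alone 12 of the 24 were called lower, and 14 when litter was added as a block to that fit (over all libraries DESeq2 called 0, and edgeR with litter as a block 2 lower). The following 2 were chosen after their values were seen. Slc25a37, mitoferrin, which brings iron into the mitochondria of erythroblasts, had 19673, 23896, 22873 and 21401 normalised counts in wild type and 15516, 15426, 16305 and 15579 in S226A. Its log2 fold change was -0.48 (SE 0.20, adjusted p = 0.106, and 0.018 with litter as a block) over all libraries and -0.47 (SE 0.08, adjusted p = 0.000804) in the livers alone (edgeR). Kel, a blood group protein of the red cell membrane, had 6117, 7131, 7326 and 6848 against 4990, 5480, 5381 and 4837. The adult globins did not pass in either fit, with 166418 ± 22015 and 148942 ± 15714 normalised counts for Hbb-bs. Of the 3 embryonic globins, Hba-x was called lower, with 81.1, 104, 79.8 and 181 against 19.1, 29.0, 51.8 and 34.2 (2 of 3 with litter as a block), and it lost its call in 3 of the 8 fits that left out 1 liver. In haem synthesis, Alas1, the rate-limiting enzyme outside red cells, was 1.61-fold higher and Cpox, a later enzyme of the pathway, was 1.32-fold lower. With litter as a block, 1 of the 8 haem genes was called higher and 3 lower.

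Lists for endothelium, mesenchyme, bile ducts and the liver surface held single called genes or a few. Of 14 sinusoidal endothelium genes, 3 were called lower (Cdh5, Gpr182 and Pecam1), beside 5.54% of all genes, and 6 with litter as a block, and all 14 log2 fold changes were below 0 (median -0.28). Cdh5, the cadherin of endothelial junctions, had 1945, 1713, 1541 and 1541 normalised counts in wild type and 1363, 1115, 1078 and 1356 in S226A. Gpr182 and Pecam1 lost their call in 5 of the 8 fits that left out 1 liver. Stab2, a clearance receptor of this endothelium, had 6688 ± 278 and 4954 ± 747, without overlap, at an adjusted p of 0.176 over all libraries and of 0.0251 in the livers alone (edgeR), and of 0.0134 with litter as a block. Of 15 stellate and portal mesenchyme genes Ecm1 was called lower (3 genes with litter as a block), of 10 cholangiocyte genes Cftr, the chloride channel, was called higher and Tspan8 lower, and of 8 mesothelium genes Gpm6a was called lower (0 without wild-type replicate 2, 2 with litter as a block). Cftr had few counts, 0, 6.35, 0 and 1.97 in wild type and 35, 16.4, 24.9 and 8.54 in S226A (log2 fold change 3.29, SE 0.68, adjusted p = 0.000691, edgeR).

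Hepatocyte genes were not called over all libraries, while their summed level was lower. The 16 hepatocyte genes summed to 247926 to 255949 CPM in the wild-type livers and to 200577 to 244164 CPM in the S226A livers, and the groups did not overlap. This sum weighs the most abundant genes most. The mean of log2(CPM + 1) over the 16 genes did overlap, at 11.71 to 11.89 in wild type and 11.38 to 11.78 in S226A. Of the 16 genes, 0 were called, 0 had an unadjusted p below 0.05 and DESeq2 called 0. In the livers alone with litter as a block 3 were called lower. Alb, the gene of albumin, had 1906810 ± 39012 and 1627254 ± 158547 normalised counts, with an SE of 0.87 in the fit over all tissues and of 0.10 in the livers alone (adjusted p = 0.935 and 0.229, edgeR). The fetal protein Afp had 557315 ± 55310 and 610759 ± 51046. S226A replicate 2, which held the muscle transcripts, had the lowest sum of hepatocyte genes.

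The liver can also be delimited without chosen markers. Among the genes tested, 918 had more than 8-fold higher RNA in wild-type liver than in both lung and brain of the Y130A litters. Of these, 73 (7.95%) were called higher and 41 (4.47%) lower (71 and 33 without wild-type replicate 2). Both shares lay near those over all genes tested, 6.14% higher and 5.54% lower. The median log2 fold change of the 918 genes was -0.10. In the livers alone, 102 of 887 were called higher and 76 lower (761 and 369 over all genes of that fit). With litter as a block in the livers alone it was 120 and 128 (881 and 580 over all genes). Of the 73 higher genes, 26 were on the granulocyte precursor, neutrophil, monocyte or phagocyte oxidase lists, beside 36 of all 1037 higher genes. Of the 41 lower genes, 11 were on the Kupffer cell, dendritic cell or B lineage lists, beside 31 of all 935 lower genes. The genes of this class summed to 447913 to 460303 CPM in wild type and to 375054 to 442227 CPM in S226A.

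Many metabolic genes are expressed in hepatocytes and in blood cells alike. Some genes of sterol and fatty acid synthesis were called lower, by small amounts. Of 24 genes of cholesterol synthesis and uptake, 4 were called lower and 0 higher (5 without wild-type replicate 2, 7 with litter as a block, 3 in the livers alone), and all 24 had log2 fold changes below 0 (median -0.20). Sqle, squalene epoxidase, had 3473, 3098, 2936 and 3424 normalised counts in wild type and, in S226A, 2837, 2338, 2530 and 2638 (log2 fold change -0.32, SE 0.10, adjusted p = 0.031, edgeR). The groups did not overlap, but the call was lost in 5 of the 8 fits that left out 1 liver. Of 23 genes in the Reactome pathway of genes activated by the sterol sensor SREBF, 5 (21.7%) were called lower and 0 higher, beside 5.54% of all genes lower. The pathway was chosen for its share called lower. All 5 genes are also on the cholesterol or lipogenesis lists described here, so that the pathway adds no independent evidence.

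In lipogenesis, 5 of 17 genes were called lower and 2 higher, 7 and 2 with litter as a block, and 3 and 2 in the livers alone. Elovl6, which lengthens palmitate, had 5541, 5058, 4580 and 5889 normalised counts in wild type and 4412, 3132, 3737 and 4280 in S226A. Fads2, a desaturase of polyunsaturated fatty acids, had 4895, 3312, 4671 and 4588 against 4218, 2424, 2915 and 3311, and its call was lost in 6 of the 8 fits that left out 1 liver. The higher members were Me1, malic enzyme, with 288, 297, 272 and 289 against 551, 567, 437 and 680, and Dgat1, an acyltransferase of triglyceride synthesis, with 451, 410, 328 and 405 against 785, 700, 654 and 689. Both were called in every fit that left out 1 liver. Fatty acid oxidation (18 genes), ketogenesis (4) and the peroxisome (16) had 0 genes called, while with litter as a block 2 peroxisome genes and 1 of fatty acid oxidation were called lower, and without wild-type replicate 2 it was 1 peroxisome gene.

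**Figure D4:**
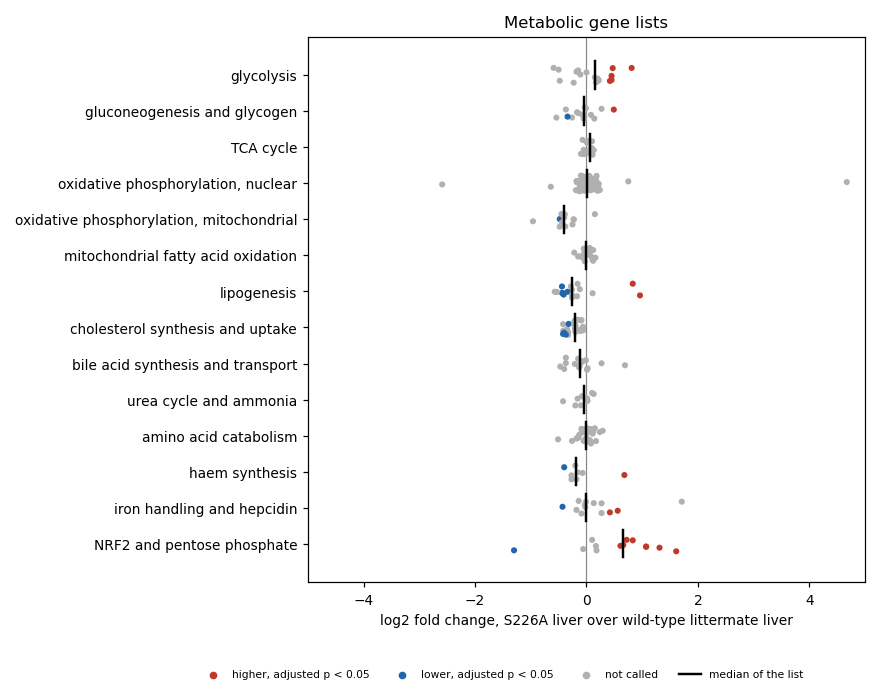
Log2 fold change of S226A over wild-type liver for each gene (points) of 14 metabolic lists, with the median of each list as a vertical line. Red and blue points passed an adjusted p of 0.05. The 24 cholesterol genes all lie below 0, the NRF2 and pentose phosphate list has its median at 0.66, and most other lists centre near 0.

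Glycolysis and the pentose phosphate pathway had higher members. Of 18 glycolysis genes, 5 were called higher and 0 lower (Pkm, Pfkp, Gpi1, Aldoa and Hk2, the last named because it completes the count). Pkm, the pyruvate kinase of tissues other than mature liver, had 3743, 3717, 3714 and 3742 normalised counts in wild type and 6912, 5913, 6810 and 6565 in S226A, a 1.76-fold difference (log2 fold change 0.81, SE 0.09, adjusted p = 9.18e-09, edgeR). Ldha, a subunit of lactate dehydrogenase, had 28858 ± 2498 and 26697 ± 1835 (wild type and S226A) and did not pass. In the Reactome glycolysis pathway, chosen for its share called higher, 8 of 29 genes (27.6%) were called higher and 0 lower. Without wild-type replicate 2 it was 7 higher, and over all genes 6.14% were higher. The 8 genes include the 5 above, and also Hk3, a hexokinase of myeloid cells, with 734, 700, 599 and 611 against 1407, 1392, 1434 and 1319. Of 15 gluconeogenesis and glycogen genes, Gyg was called higher and Gbe1 lower (the latter lost in 5 of the 8 fits that left out 1 liver).

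Of 13 genes that respond to the factor NRF2 or belong to the pentose phosphate pathway, 8 were called higher and 1 lower, and the list summed to 1409 to 1528 CPM in wild type and 1901 to 2077 CPM in S226A. Nqo1, a quinone reductase, had 117, 228, 149 and 186 normalised counts in wild type and 437, 625, 297 and 325 in S226A (log2 fold change 1.31, SE 0.20, adjusted p = 9.58e-06, edgeR). The transporter Abcc4 had 435, 363, 391 and 364 against 871, 805, 840 and 749. Its relative Abcc3, an exporter of conjugated bile acids, went the other way with 962, 765, 728 and 619 against 458, 315, 211 and 268. Gclm and Taldo1 did not pass the test. Of 7 genes on the phagocyte oxidase list, 6 were called higher and 0 lower (median log2 fold change 1.04). These 6 encode parts of the enzyme that makes superoxide in neutrophils and macrophages, and the member that did not pass, Nox1, named to complete the count, is an oxidase of epithelia with 0 reads in the wild-type livers. Cybb, the catalytic subunit, had 2317, 2389, 1786 and 2346 against 4943, 4380, 4592 and 4224. The neutrophil list was also higher in all 4 S226A livers (3112 to 3819 CPM in wild type, 8872 to 9662 CPM in S226A), and its part in the differences of glycolysis, NRF2 and oxidase genes was not tested.

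**Figure D5:**
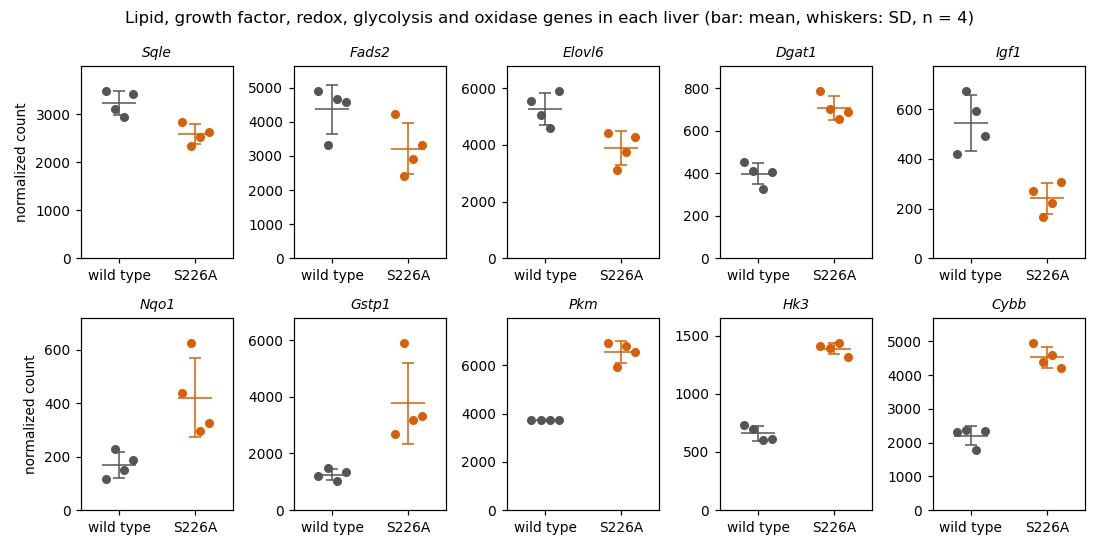
Normalised counts of 10 genes in each liver. Points are libraries, horizontal bars are means and whiskers are SD (n = 4 per group), and all axes start at 0. Pkm lies between 3714 and 3743 in the 4 wild-type livers and between 5913 and 6912 in the 4 S226A livers, whereas Fads2 overlaps between the groups.

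Conjugation and transport genes changed in few members. Of 38 conjugation enzymes, 4 were called higher and 1 lower (6 and 0 without wild-type replicate 2), led by the glutathione transferases Gstp1 and Gstm1. Gstp1 had 1197, 1478, 1013 and 1344 normalised counts in wild type and 2680, 5890, 3181 and 3333 in S226A (3.00-fold, adjusted p = 8.43e-10, edgeR). Gstm1 had 1942, 2406, 1634 and 2310 against 4925, 9578, 4596 and 4996. S226A replicate 2, the library with muscle transcripts, was the highest for both, and the other 3 S226A livers also lay above all wild-type livers. Of 55 cytochrome P450 genes of families 1 to 4, Cyp4f18 was called higher and Cyp2s1 lower (1 and 4 with litter as a block, and 1 and 0 without wild-type replicate 2). Lists for bile acid synthesis and transport, the urea cycle, amino acid catabolism, retinol and vitamin transport, coagulation and the complement made by hepatocytes had 0 called genes over all libraries, and with litter as a block 1 bile acid gene was called higher and 1 lower. Cps1, the entry enzyme of the urea cycle, had 79040 ± 9000 and 59193 ± 14156 normalised counts (adjusted p = 0.685, edgeR, 0.00255 in the livers alone with litter as a block). The bile salt export pump Abcb11 had 10847 ± 2099 and 7836 ± 1475 (adjusted p = 0.354, and 0.000473 in the livers alone with litter as a block).

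Of the genes of growth hormone action, Igf1, the main growth factor under it, was called lower. Igf1 had 418, 672, 595 and 491 normalised counts in wild type and 272, 165, 222 and 308 in S226A (log2 fold change -1.18, SE 0.19, adjusted p = 1.56e-05, edgeR). Its receptor Igf1r had 1687, 1846, 1743 and 1692 against 2531, 2261, 2568 and 2522. In this list of 15 genes 1 was called higher and 2 lower, and 1 and 4 with litter as a block. Ghr, the growth hormone receptor, was the other lower gene (adjusted p = 0.033, and 0.179 without wild-type replicate 2). Of 16 acute phase genes, Saa3 and Lbp were called higher, and haptoglobin (Hp) had 29094 ± 4403 and 40600 ± 4863 normalised counts, without overlap, at an adjusted p of 0.224 over all libraries and of 0.0195 in the livers alone, and of 0.00591 with litter as a block. Of 13 iron genes, Cp, the ferroxidase ceruloplasmin, and Ftl1, ferritin light chain, were called higher and Hfe lower (Hfe lost in 4 of the 8 fits that left out 1 liver).

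Genes of mitochondrial respiration are encoded in the nucleus and in the mitochondria. Of 78 nuclear genes of oxidative phosphorylation 0 were called (1 higher without wild-type replicate 2), with a median log2 fold change of 0.01. Of 12 mitochondrially encoded genes, 11 had log2 fold changes below 0 (median -0.39) and mt-Nd1 was called lower, with 11856, 10756, 11852 and 15075 normalised counts in wild type and 8641, 8864, 8758 and 9324 in S226A. With litter as a block 2 were called, and 6 when this was fitted to the livers alone. The difference between the 2 sets was not tested. The 17 genes of the TCA cycle had 0 called.

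Most lists of basic cell processes held no or few called genes. None of 24 DNA replication, 20 mitosis, 77 ribosomal protein, 16 unfolded protein response and 12 immediate early and heat shock genes was called over all libraries, and none of 12 hypoxia genes (3 lower with litter as a block), of which all 12 had log2 fold changes below 0 (median -0.23). Of 12 genes for Daxx and its partners, among them Atrx, Hira and Setdb1, 0 passed. Over the 25 lists of all kinds with 0 genes called by edgeR, 36 of 495 genes had an unadjusted p below 0.05 and DESeq2 called 6. Among 17 p53 targets, Eda2r, a receptor of the TNF family, had 25.7, 4.23, 0 and 7.89 normalised counts in wild type and 72.1, 71.4, 48.8 and 49.1 in S226A, and Mdm2, the ubiquitin ligase of p53, had 1247, 1193, 1190 and 1139 against 1395, 1301, 1469 and 1432. Both were called higher (2 higher and 1 lower without wild-type replicate 2), while Btg2 and Trp53inp1 did not pass. Of 20 interferon-stimulated genes, Bst2 was called higher (adjusted p = 0.0563 without wild-type replicate 2) and Ifit2 lower. Of 38 proteasome genes 35 had log2 fold changes above 0 (median 0.10) and 4 were called higher, 7 with litter as a block and 3 without wild-type replicate 2. Over all genes 6.14% were called higher. The list summed to 2967 to 3284 CPM in wild type and 3203 to 3819 CPM in S226A, with overlap, and S226A replicate 2 was the highest. Among the genes called higher, Psmb8, Psmb9 and Psmb10 encode the 3 catalytic subunits of the immunoproteasome, a form found in blood cells. Psmb10 had an adjusted p of 0.0602 without wild-type replicate 2, and Psmb8 had 339, 292, 359 and 411 against 776, 715, 574 and 656.

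Lysosomal genes of phagocytes split in both directions. Of 20, 3 were called higher and 5 lower. Ctss, a protease of antigen-presenting cells, had 1248, 1092, 1438 and 1283 normalised counts in wild type and 639, 761, 509 and 540 in S226A, and Lgmn, legumain, had 2589, 2504, 2335 and 2683 against 1381, 1261, 1223 and 1444. Laptm5, a lysosomal membrane protein of blood cells, had 1421, 1374, 1596 and 1395 against 2030, 1906, 1933 and 1921. Of 44 collagens 5 were called lower and 0 higher (4 lower and 2 higher without wild-type replicate 2, 5 and 3 with litter as a block).

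Among 601 Reactome pathways of at least 20 genes tested, the 8 with the largest share of genes called higher and the 8 with the largest share called lower were described, passing over pathways that shared most of their called genes with one already taken. Signalling through GPVI, the collagen receptor of platelets, had the highest share with 11 of 28 genes higher (39.3%) and 1 lower, beside 6.14% over all genes. Plcg2, a phospholipase of that cascade, had 1631, 1310, 1344 and 1116 normalised counts in wild type and 2518, 2161, 2221 and 2232 in S226A. Actin regulation through WASP and WAVE proteins followed with 9 of 29 (31%) higher and 3 lower, and its member Was had 545, 578, 552 and 568 against 848, 788, 883 and 837. In NLR signalling 12 of 42 genes (28.6%) were higher and 2 lower, among them Card9, an adaptor of fungal recognition, with 315, 294, 278 and 273 against 736, 636, 694 and 760. Phagocytosis through Fc gamma receptors had 18 of 72 (25%) higher and 6 lower, and the Src family kinase Fgr had 314, 347, 216 and 353 against 788, 749, 747 and 757. The 2 VEGF receptor pathways (23 of 91 higher and 10 lower, and 6 of 22 higher and 3 lower) and the NRAGE pathway (12 of 47 higher and 5 lower) all hold Vav1, an exchange factor of blood cells, among their called genes. So do the GPVI and Fc gamma receptor pathways, so that these pathways are not separate from each other. Without wild-type replicate 2 the lower genes of these 3 pathways were 6, 2 and 2, and 1 in the WASP and WAVE pathway.

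On the lower side, the synthesis of phosphatidic acid had 6 of 23 genes (26.1%) lower and 1 higher, and glycerophospholipid synthesis had 14 of 84 (16.7%) lower and 6 higher (10 and 6 without wild-type replicate 2), beside 5.54% over all genes. Ptdss2, a phosphatidylserine synthase, had 1548, 1534, 1609 and 1615 normalised counts in wild type and 1207, 1315, 1239 and 1117 in S226A. The complement cascade had 5 of 25 genes (20%) lower, which were C1qa, C1qb, C1qc, C6 and Cfp, and the first 4 are also on the Kupffer cell list. Cfp was chosen to complete the count. Amino acid transport across the plasma membrane had 6 of 31 (19.4%) lower and 1 higher. Slc7a2, a carrier of cationic amino acids, had 6436, 5793, 5935 and 6533 against 4814, 3813, 4948 and 5190, and Slc38a5, a glutamine carrier, had 549, 563, 621 and 540 against 436, 444, 407 and 428. Slc1a2, a glutamate transporter counted in the glutamate release pathway (4 of 22 lower and 1 higher), had 34.6, 62.4, 52.0 and 37.5 against 5.30, 6.69, 0 and 0. The calmodulin pathway had 6 of 27 lower and 4 higher, with Pde1c at 201, 259, 197 and 228 against 91.2, 129, 72.7 and 76.9, and the pathway of AXIN recruitment had 4 of 23 lower and 3 higher. In these 16 pathways the called genes of the leading direction were 4 to 23, and without wild-type replicate 2 the counts lay between 3 and 23.

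Several of the genes with the largest increases are on none of the cell type lists. Penk, the precursor of enkephalin peptides, had 0, 21.2, 0 and 18.7 normalised counts in wild type and 174, 139, 119 and 179 in S226A (log2 fold change 3.90, SE 0.43, adjusted p = 6.48e-09, edgeR). Gpnmb, a glycoprotein of lipid-laden and remodelling macrophages, had 28.7, 10.6, 15 and 13.8 against 217, 141, 108 and 225. Tnfsf13b, the B cell survival factor BAFF, had 43.5, 44.4, 56.7 and 20.7 against 177, 117, 182 and 144. Ces1g, a carboxylesterase of lipid metabolism, had 65.2, 96.3, 116 and 151 against 503, 523, 198 and 235, and lost its call when litter 2881 was left out (adjusted p = 0.0834, edgeR). Mefv, the pyrin of neutrophils, had 83.0, 78.3, 86.7 and 39.5 against 238, 269, 357 and 206. The potassium channel gene Kcna2 was among the largest decreases that are on no list, with 207, 231, 216 and 301 against 17.0, 8.18, 5.98 and 0. A list of genes higher in the livers of both mutants had 11 of 11 called higher (median log2 fold change 2.36). That list was chosen on these same samples, so that its count is no independent evidence of direction.

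The S226A effect was compared with that of Y130A by an interaction term. The livers of the Y130A litters share no library with these 8. In Y130A liver 46 genes were called against wild-type littermates. The S226A effect differed from the Y130A effect for 997 genes (5.9%, interaction at an adjusted p below 0.05, edgeR), 539 with the more positive and 458 with the more negative change in S226A (565 and 298 without wild-type replicate 2, 503 and 549 with RLE scaling, 673 and 796 by DESeq2, 808 and 378 with library totals, 368 and 140 in the livers alone), and 795 of these are among the 1972 DEGs (40.3%). It was called for 16 of the 22 squamous genes, whose RNA was present in wild-type replicate 2 and also in Y130A liver (mean Krt4 of 1411 normalised counts, and 27 in its wild-type littermates), so that nothing is read from these. The difference was called for 16 of the 20 Kupffer cell genes, 13 of 18 neutrophil genes, 7 of 10 granulocyte precursor genes, 6 of 7 phagocyte oxidase genes and 7 of 13 NRF2 and pentose phosphate genes. For Pkm the Y130A log2 fold change was 0.00 and the interaction had an adjusted p of 3.39e-05, and for Igf1 it was 0.42 and the adjusted p 6.25e-05. For Sqle the interaction was not called (adjusted p = 0.436), and of the 24 cholesterol genes it was called for 1. Of 17 lipogenesis genes it was called for 3, which include Me1 and Dgat1 with Y130A log2 fold changes of -0.11 and 0.02.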

How the data were processed

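RNA was extracted with Trizol from flash-frozen tissue and sequenced in bulk. The authors trimmed reads with Trim Galore (0.6.5), checked them with FastQC (0.11.5), aligned them to GRCm38 with STAR (2.6.0b) and deposited unnormalised read counts per gene. Here these counts were fitted with edgeR (4.0.16, quasi-likelihood, TMM, filterByExpr with a minimum count of 10) in R 4.3.3, with all 47 libraries and 1 coefficient per group, and p-values were adjusted by Benjamini-Hochberg over 16892 genes. DESeq2 (1.42.0), other scalings and filters, the livers alone, litter as a block and leaving out each liver were alternatives. The script was checked on simulated counts. Replicate numbers stand for litters, as the titles and the study's litter matching give them. Deviations of littermates from their group means correlated over genes at r = 0.0629, 0.142, 0.000518 and 0.0518.

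Gene lists, members and tests were chosen with earlier results of these data known. Named were Daxx, the 12 highest and 12 lowest non-overlapping stringent genes with a mean of at least 100, and in each list and pathway up to 4 called genes with the largest fold change and up to 2 of the most abundant uncalled ones (called genes only in pathways), and others are marked as chosen after their values were seen. Reactome pathways came as distributed with an R package. Depth is the total count per library. Some genes that the naming rule covers are not reported here.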

Additional observations from a re-analysis of the deposited data

Results flagged for a closer look

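In 172 sets of 4 libraries, 9 (5.23%) held 1 library whose gap to the nearest other, as a share of the range, passed Dixon's critical value, and chance alone gives about 1 in 20. List levels are means of log2(CPM + 1). Wild-type replicate 2 was at 4.24 for squamous epithelium (others 0.35 to 0.47), at 7.44 for gluconeogenesis and glycogen (7.63 to 7.67) and at 4.08 for collagens (3.48 to 3.56). S226A replicate 2 was at 4.34 for skeletal muscle (0.75 to 1.36), at 6.24 for the proteasome (5.99 to 6.03) and at 1454 normalised counts for Ctsg (2069 to 2174). S226A replicate 3 was at 0.63 for squamous epithelium (0.29 to 0.32), wild-type replicate 1 at 7.07 for the phagocyte lysosome (6.97 to 6.98) and wild-type replicate 3 at 5.24 for the phagocyte oxidase (5.35 to 5.36).

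For 18 of 25 genes, which were Daxx and those with the largest changes, the S226A effect differed from the Y130A effect in edgeR's interaction test. The difference, S226A minus Y130A on the log2 scale, was -8.39 for Clec4f, -5.25 for Cd163, -5.25 for Folr2, -4.28 for Kcna2, -4.63 for Timd4, -4.36 for H2-Aa, -3.08 for Fcrla, -3.13 for C1qa, -2.91 for C6, -2.74 for C1qc and -2.44 for Siglec1. It was 2.59 for Penk, 3.46 for Gpnmb, 2.04 for Inpp5j, 1.29 for Chil3, 2.09 for Ly6a and 1.70 for Ctsg. For Vsig4, with 0 reads in S226A liver, the fitted difference of -11.94 depends on the prior count.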

How the results depend on the processing

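The 1972 DEGs became 1130 in the livers alone and 1064 at an adjusted p below 0.01, and the 997 interaction genes became 508, 629 (livers alone with litter as a block) and 458. Leaving out 1 liver gave 1628 to 1895 DEGs, 303 to 350 stringent DEGs and 861 to 1036 interaction genes. With litter as a replicate block the pairing gave 2238 DEGs, 1810 of them shared, and it changed no other call of a gene described in the text than those printed beside their results. Over the fits that left out 1 liver the log2 fold change ran from -10.59 to 0.00 for Dsg3, from -11.13 to 3.13 for Krt5 and from -8.38 to 2.75 for Krt4, the upper ends being without wild-type replicate 2. Without litter 2881 Krt5 was at 3.62 and Krt4 at 3.06. Krt5 had an adjusted p of 0.024 in edgeR and of 0.0538 with litter as a block. Without litter 2881 the calls of Bst2, Psmb9, Psmb10, Ecm1, Cdh5 (adjusted p = 0.0538), Gpr182, Pecam1, Gpm6a, Ly6a, Hba-x, Lbp, Ghr, Gbe1, Elovl6, Sqle, Cyp2s1, Ftl1 and Ces1g were lost. Single livers also ended calls in edgeR: wild-type replicate 3 for Ifit2 (adjusted p = 0.0713) and Psmb9 (0.0511), S226A replicate 1 for Lbp (0.0677), S226A replicate 4 for Tspan8 (0.119), and S226A replicate 2 for Ecm1 (0.0704), Elovl6 (0.0539), Ftl1 (0.0534) and Ly6a (0.0519). Bst2 lost its call in 2, Cd34, Hba-x, Ghr and Cyp2s1 in 3, and Gpm6a, Hfe and Psmb10 in 4 of the 8 fits. Of 286 named genes 168 were called, and 108 kept the call under all 16 alternatives. Few genes were called in the bin of lowest expression, and the part of depth in this was not tested.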
